A study of Mus musculus with 4 samples.

Results

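The genes described here encode the proteins that turn newly made procollagen chains into crosslinked fibres. They are 36 of the 32285 genes in the deposited tables, taken by symbol, and all 36 symbols were found once in each table. By role they form 13 hydroxylases and sugar-adding enzymes with their partners, 11 chaperones and transport factors, 7 propeptide proteases and their enhancers, and 5 lysyl oxidases. Counts of these genes were summed over the cells of each cell class in each library.

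The cells came from intervertebral discs of the tail, which are fibrocartilage cushions between the vertebral bones, of female C57BL/6 mice with a wild-type genotype, 12 weeks old. There were 2 control libraries of undamaged discs and 2 libraries of discs punctured on both sides with a 30G needle, 1 of each in each of 2 rounds, with tissue collected 7 days after puncture. Both kinds of disc came from the same animals, but the control discs lay further toward the tail tip, so tail level and puncture cannot be told apart. Discs were pooled before the cells were freed (6 mice and 30 discs per group, per the labels), frozen, thawed and sorted for viability. The labels do not say whether those numbers hold for each round. A library is therefore a pool, and 2 libraries per group give the only measure of spread.

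Collagen chains are modified inside the endoplasmic reticulum (ER) before they fold into a triple helix. Prolyl 4-hydroxylase makes the hydroxyproline that keeps the helix stable at body temperature, lysyl hydroxylases mark the lysines used later for sugars and crosslinks, and chaperones such as HSP47 hold the helix until it is exported. Outside the cell, proteases cut off both propeptides and lysyl oxidases start the crosslinks between neighbouring molecules. The disc depends on these steps because its outer ring, the annulus fibrosus, is built from collagen lamellae. Cells of the inner annulus make a cartilage-like matrix with type II collagen, and cells of the outer annulus make a tendon-like matrix with type I collagen.

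After keeping barcodes with at least 250 detected genes there were 378 and 856 control cells and 778 and 1834 injured cells in rounds 1 and 2. There were 3 cell classes among the matrix cells: an inner annulus or cartilage-like class (204 and 258 control cells, 487 and 1036 injured cells), an outer annulus or fibroblast-like class (34 and 52 control cells, 32 and 397 injured cells) and a nucleus pulposus-like class (29 and 67 control cells, 5 and 1 injured cells). The classes are groups of clusters named from marker genes, and the clusters were made without the 36 genes. The median number of UMIs (distinct captured transcript molecules) in a matrix cell was 2620 and 3948 in the control libraries and 9125 and 5642 in the injured ones, and the median mitochondrial share was 2.46% and 8.86% against 2.44% and 3.86%. Cells held 21.8% of all UMIs in control library 2 against 75.2% and 62.2% in the injured libraries, and the rest was free RNA or poorer barcodes. Control library 1 also stood apart in its barcodes: of its 378 cells, 159 had barcodes that also carried UMIs in injured library 1 at similar or higher counts. For 104 of the 159 the count in injured library 1 was 29.2 to 44.8 times as high (median 22926 against 708 UMIs). For the other 55 it was similar. In the inner class 94 of its 204 cells had such barcodes and in the outer class none had, so the main inner results are also given without them. Levels are CPM, the counts per 1000000 UMIs, of the UMIs summed over a class in a library. They are not divided by gene length, so a gene's CPM is compared between cell classes and libraries. Where the UMIs of several genes are set against each other, as shares of a gene family or per collagen UMI, these are shares of captured molecules, compared between cell groups and libraries and not as levels per length.

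Most of the 36 genes were higher in matrix cells than in macrophages. In the injured libraries, where macrophages were frequent enough to compare, 33 of them passed the low-count filter and 29 were higher in the mean of the inner and outer classes than in the macrophage-like class (37 and 89 cells), by edgeR's quasi-likelihood test with Benjamini-Hochberg adjustment over 10360 genes. Of all genes tested, 11.6% were called higher in that direction. None of the 33 was called lower. For 8 of the 33 (Creb3l1, P3h3, P4ha3, Loxl1, Adamts2, P3h4, Bmp1 and Loxl4), 7 of them called, no macrophage sum reached the filter's minimum, so they were tested only because the matrix sums did. Lox, the founding lysyl oxidase, stood at 0 and 16.7 CPM in the macrophage-like class against 722 and 564 in the inner class and 847 and 922 in the outer class. Serpinh1, which encodes the collagen chaperone HSP47, stood at 28.1 and 20.1 CPM in macrophages against 242 and 265 in the inner class and 479 and 750 in the outer class. The matrix level exceeded the macrophage level in every injured library for both genes.

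The classes were cut from the expression of other genes in the same cells, so the p-values between classes describe how far these genes follow that division. Among hydroxylases with over 3 macrophage UMIs the log2 difference was 1.63 for P4ha1, 2.66 for P4ha2, 1.63 for P4hb, 1.92 for Plod1, 3.20 for Plod2, 1.73 for Plod3, 2.42 for P3h1 and 2.81 for Crtap. Among chaperones it was 1.09 for Ppib, 4.21 for Serpinh1, 3.06 for Fkbp7, 4.76 for Fkbp10, 3.65 for Rcn3 and 2.23 for Kdelr2. It was 4.77 for Pcolce2, 6.31 for Lox and 3.87 for Loxl3. The largest of these differences was thus that of a crosslinking enzyme and the smallest that of Ppib, the prolyl isomerase cyclophilin B, which many secretory cells use.

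P4ha3 and Loxl1 had no macrophage UMI, and against a floor of 3 counts over both macrophage sums they were at least 3.78-fold and at least 11.5-fold higher in the matrix sums. The genes with 1 to 3 macrophage UMIs had ratios that rest on those few counts, with exact 95% intervals that cover counting error only. The ratio was 60.5 (10.8 to 2390) for P3h4, 57.9 (16.0 to 478) for Pcolce, 45.5 (8.16 to 1799) for Bmp1, 41.4 (14.1 to 201) for Loxl2 and 37.4 (10.3 to 309) for P3h2. It was 26.8 (4.80 to 1060) for Creb3l1, 24.3 (4.36 to 963) for Adamts2, 22.3 (6.15 to 184) for Kdelr3, 14.6 (2.602 to 577) for P3h3 and 7.38 (2.51 to 35.9) for Fkbp14. Of the other 4 genes tested, Loxl4 also had no macrophage UMI and missed the threshold (adjusted p = 0.10 in edgeR). Colgalt1, a galactosyltransferase acting on hydroxylysine, differed by −0.15 ± 0.35 on the log2 scale (log2 difference ± SE), Hspa5, the general ER chaperone BiP, by 0.27 ± 0.28, and Mia3, which loads procollagen into export carriers, by 0.82 ± 0.33.

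**Figure D1:**
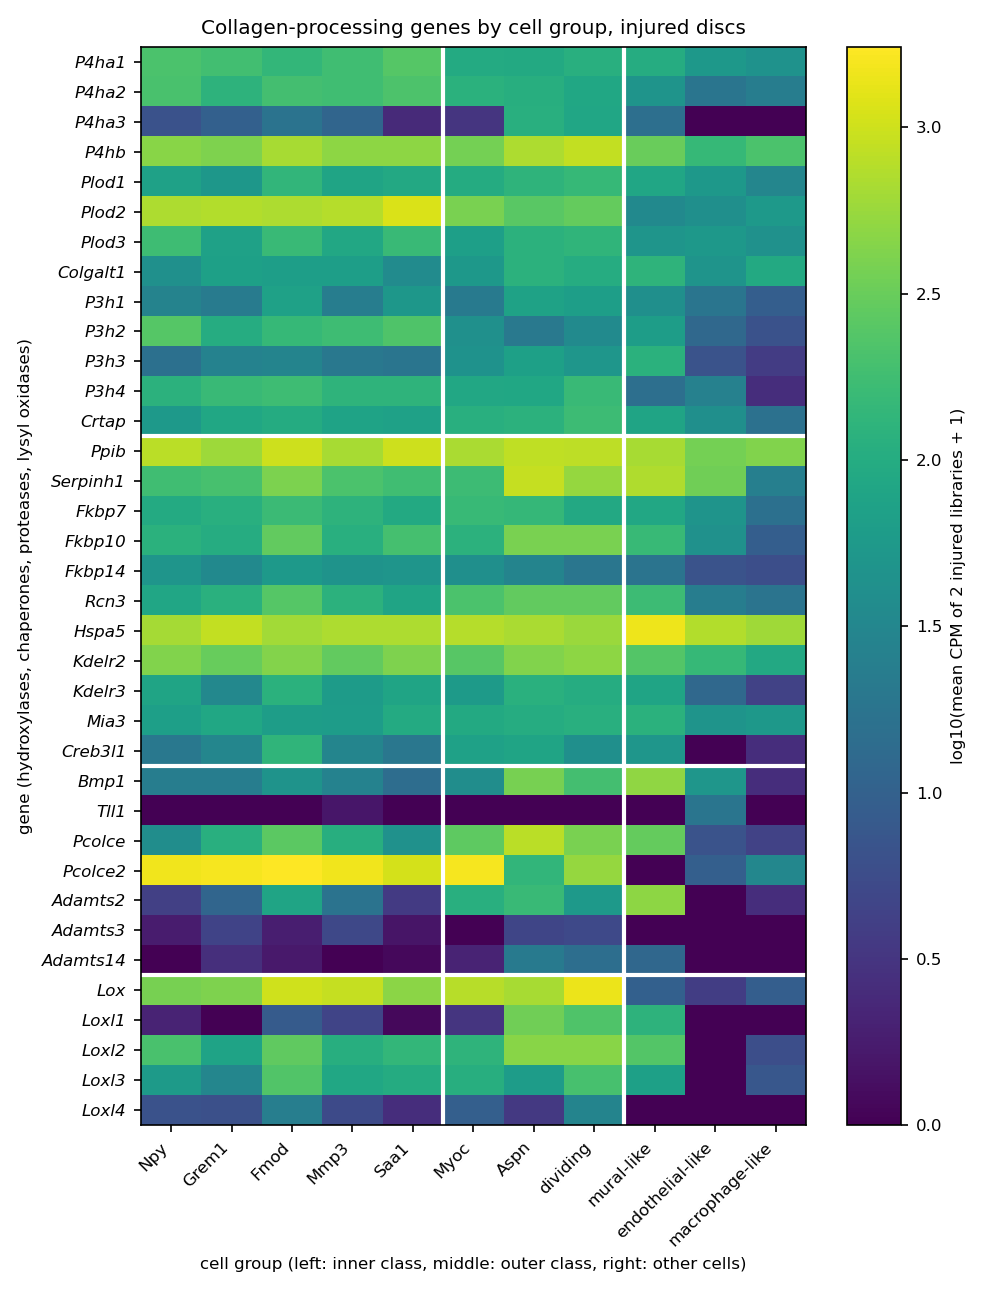
Mean CPM over the 2 injured libraries for the 36 genes (rows, by role) in 11 cell groups (columns), as log10 of CPM + 1. Loxl1 and P4ha3 are bright in the Aspn and dividing columns and dark in the inner columns, and Pcolce2 is dim in the Aspn column (137 CPM) against 1566 CPM in the Myoc column.

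Inner and outer cells differed in which members of the enzyme families they carried. The class names rest on which markers a cluster detected, and the sums of the 16 inner annulus or cartilage-like markers did not separate the classes. They stood at 15443 and 13181 CPM in the inner class of the controls and 19853 and 21695 CPM after injury. In the outer class they stood at 20683 and 16739 CPM in controls and 17695 and 9363 CPM after injury. The 17 outer markers summed higher in the outer class of every library. With library as a term and 8 class sums, 8 of 33 tested genes were higher in the outer class and 3 were higher in the inner class at an adjusted p under 0.05, where 5.79% and 5.35% of 9294 genes were called in those directions. Those higher in the outer class were the extracellular enzymes Loxl1 (log2 difference 6.40 ± 0.52), Adamts2 (2.48 ± 0.24) and Bmp1 (2.45 ± 0.32), the enhancer Pcolce (2.33 ± 0.21), the prolyl 4-hydroxylase subunit P4ha3 (2.89 ± 0.41), and the chaperones Rcn3 (1.04 ± 0.21), Serpinh1 (1.00 ± 0.20) and Fkbp10 (0.94 ± 0.20). Loxl1 had 0, 2, 6 and 22 UMIs and P4ha3 2, 4, 35 and 60 UMIs in the inner sums of control 1, control 2, injured 1 and injured 2. No inner sum of either gene reached the low-count filter's minimum, so both were tested only because outer sums did, and the fitted fold of Loxl1 rests on those few inner counts. P4ha3 had 1 and 2 UMIs in the outer sums of the controls, below that minimum, and 26 and 258 in those of the injured libraries. Its class difference thus rests on the injured libraries. Adamts2 removes the amino-terminal propeptide, Bmp1 the carboxy-terminal one, and Pcolce speeds up Bmp1. Higher in the inner class were P3h2 (−2.47 ± 0.28, outer minus inner), a prolyl 3-hydroxylase, Plod2 (−1.01 ± 0.25), the lysyl hydroxylase of the collagen telopeptides, and P4ha1 (−0.74 ± 0.22).

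P3h2 read 92.9, 94.8, 219 and 172 CPM in the inner class and 15.3, 32.8, 30.3 and 27.6 CPM in the outer class of control 1, control 2, injured 1 and injured 2. Every inner value lay above every outer value. Adamts2 read 23.2, 18.3, 19.7 and 28.8 CPM in the inner class and 127, 156, 90.8 and 149 CPM in the outer class, again without overlap. P4ha1 sat at the edge of the threshold (adjusted p = 0.049 in edgeR) and lost its call under 9 alternatives, among them DESeq2 (adjusted p = 0.067). Without injured library 1 the number of called genes among the 36 went from 11 to 6 (4.81% of all genes called in either direction), with Plod2, Serpinh1 and Fkbp10 also lost and P4ha3 below the low-count filter. Without the shared barcodes 10 of 32 were called, 8 higher in the outer class and 2 in the inner one, with P4ha1 lost, where 5.69% and 5.06% of 8958 genes were called (10.8% in either direction). The finer clustering called 18 of 33, where 15.7% of all genes were called.

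P4ha1 and Plod2 belong to the genes that hypoxia is known to induce in many cells, so a list of other hypoxia genes is given beside them. The 2 were picked after their calls were seen. In the same families P4ha2, Plod1 and Plod3 were not called between the classes, and P4ha3 was higher in the outer class. What the classes' oxygen supply has to do with any of these genes was not tested. Of 13 tested genes on the hypoxia list, 5 were higher in the inner class (Slc2a1, Bnip3, Ndrg1, Vegfa and Pgk1) and none in the outer class, where 5.35% and 5.79% of all genes were called in those directions, and their median log2 difference was −0.66 beside −0.03 over all genes tested. Without the shared barcodes 2 of the 13 were called, where 5.06% of all genes were called higher in the inner class. The ER folding list had 1 of 21 called, Sdf2l1, higher in the inner class, a share close to the 5.35% of all genes.

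Within the classes the clusters differed in which paralogue they used. These shares are descriptions of clusters. The Aspn cluster, outer class cells led by Aspn, Cthrc1 and Postn, held 12 and 253 injured cells, and the Myoc cluster, outer class cells led by Myoc and Angptl7, held 16 and 74. Pcolce2 made up 17.7% (exact 95% interval 11.9 to 24.8) and 10.9% (9.53 to 12.5) of the UMIs of the paralogues Pcolce and Pcolce2 in the Aspn cluster of injured libraries 1 and 2. In the Myoc cluster it made up 85.03% (79.1 to 89.8) and 85.05% (82.6 to 87.2). Among the 5 inner clusters the lowest share was that of the Fmod cluster, at 90.2% and 83.6%. Pcolce held the larger share of the pair's UMIs in the Aspn cluster of both injured libraries and in the dividing cluster of injured library 2.

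Loxl1, which is known for elastic fibre crosslinking, followed the same line. It made up 27.3% (20.8 to 34.5) and 20.2% (18.9 to 21.5) of lysyl oxidase UMIs in the Aspn cluster. In the Myoc cluster it was 0 of 105 UMIs in injured library 1, where the exact interval reaches 3.45%, and 0.38% (0.046 to 1.36) in injured library 2. In the mural-like cells, which are outside the matrix classes, it made up 33.3% (19.1 to 50.2) and 24.0% (9.36 to 45.1), from 13 and 6 Loxl1 UMIs. In the 2 injured libraries 88.9% and 97.8% of all matrix-cell Loxl1 UMIs lay in the Aspn and dividing clusters, which held 4.03% and 27.7% of the UMIs of all genes.

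P4ha3 made up 43.2% (28.3 to 59.0) and 28.9% (25.5 to 32.6) of prolyl 4-hydroxylase alpha subunit UMIs in the Aspn cluster, and 0 of 21 and 1.75% (0.21 to 6.19) in the Myoc cluster. Of matrix-cell P4ha3 UMIs, 42.6% in injured library 1 and 80.5% in injured library 2 lay in the Aspn and dividing clusters, and in injured library 1 the Mmp3 and Fmod clusters held a further 27.9% and 19.7%. The dividing cluster was close to the Aspn cluster in P4ha3, at 29.2% (12.6 to 51.1) and 30.4% (24.4 to 36.8) of its family. For Loxl1 it stood at 18.3% in injured library 2, from 70 cells, and at 0 of 220 family UMIs in injured library 1, from 4 cells.

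**Figure D2:**
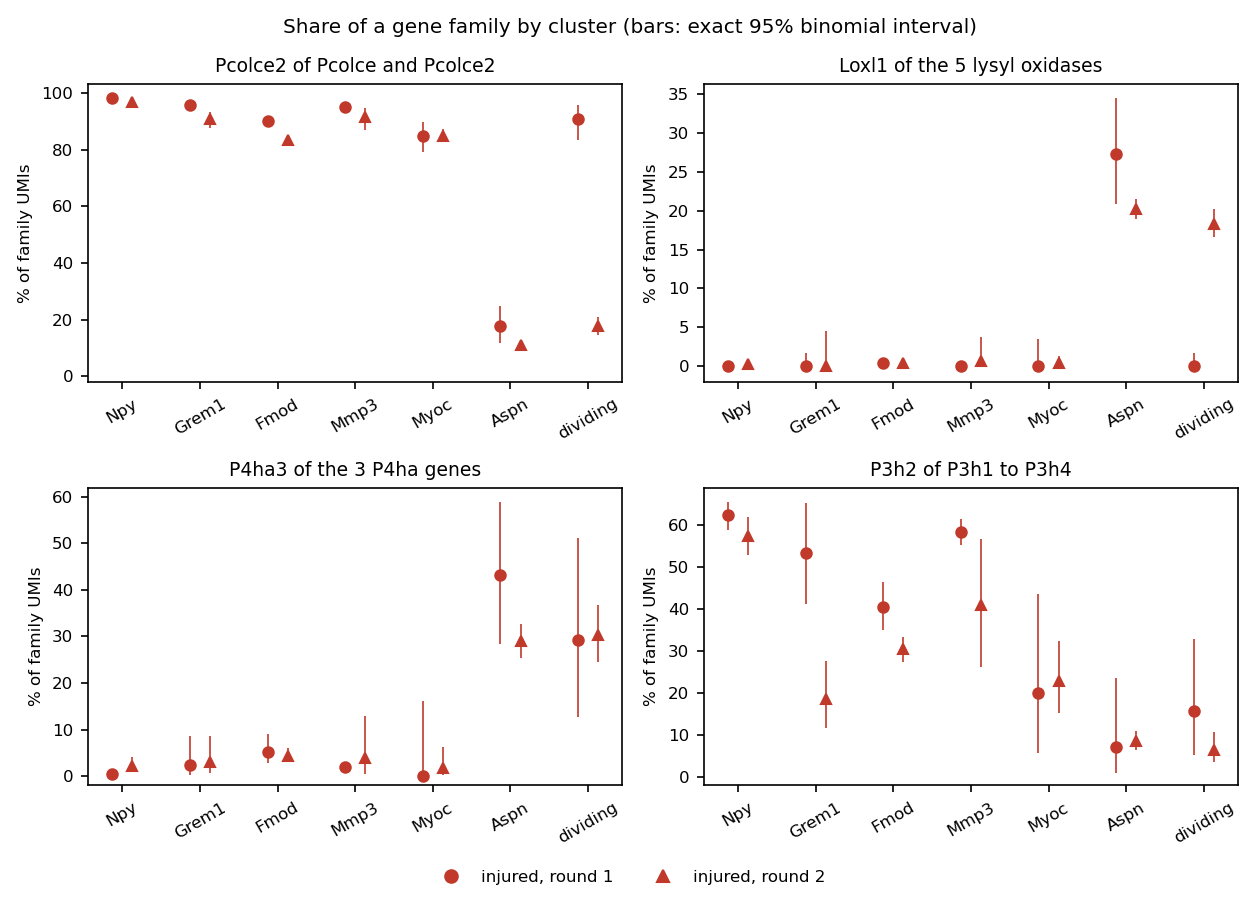
Share of 1 gene in the UMIs of its family (vertical axis, %) in 7 matrix clusters of the 2 injured libraries, with exact 95% binomial intervals that cover counting error only. In the Aspn cluster Pcolce2 lies at 17.7% and 10.9% and Loxl1 and P4ha3 reach 27.3% and 43.2% in round 1.

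P3h2 ran the other way, at 62.4% and 57.5% of prolyl 3-hydroxylase family UMIs in the Npy cluster of the inner class against 7.14% and 8.52% in the Aspn cluster. Not every inner cluster exceeded every outer one, since in injured library 2 it made up 18.6% (11.6 to 27.5) in the Grem1 cluster and 23.0% (15.2 to 32.5) in the Myoc cluster. The Fmod cluster, the inner cells led by Fmod and Comp, held the highest inner levels of Loxl3 (172 and 286 CPM in the injured libraries), Creb3l1 (133 and 126 CPM) and Serpinh1 (371 and 423 CPM). At the finer clustering 342 of the 387 cells of the Fmod cluster fell in the outer class by the same markers, so its place in the inner class depends on the clustering. Creb3l1 encodes OASIS, a membrane-bound transcription factor of secretory cells such as osteoblasts. Mural-like cells, the pericytes and smooth muscle around vessels (16 and 19 injured cells), carried Bmp1 at 476 and 544 CPM and Adamts2 at 453 and 526 CPM, above both matrix classes, and had no Pcolce2 UMI in any library. The 7 mural markers summed to 165 and 257 CPM in the injured outer class and to 117 and 156 CPM in the control outer class, with Myh11 at 0 in all 4, and their part in the outer results was not tested. The 5 markers of dividing cells summed to 15.3 and 27.8 CPM in the control outer class and to 501 and 344 CPM in the injured one, and their part was not tested either.

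In the inner class the collagen-modifying genes were higher in both injured libraries for many steps of the pathway. Of the 32 genes that passed the low-count filter, 20 read higher in both injured libraries than in both control libraries, where 13.9% of 10890 genes did so, and 2 read lower in both, where 24% did so. Without the shared barcodes these counts were 21 and 2, where 14.4% and 24.7% of genes did so. The fit that took control and injured libraries of a round as a pair called 13 of the 32 higher and none lower, where 4.04% and 3.71% of all genes were called in those directions (7.75% in either). The unpaired fit called none of the 32 and none of all genes (0% called), with 12 of the 32 and 837 of 10890 genes (7.69%) at an unadjusted p under 0.05, and DESeq2 without the pairing also called none of the 32. The paired fit leaves 1 residual degree of freedom per gene and the unpaired fit 2, so both lean on the spread shared across genes. The median log2 change of the 32 was 0.82 in the paired fit beside −0.05 over all genes tested. The 17 outer annulus or fibroblast-like markers summed to 6821 and 5404 CPM in the inner class of the controls and to 18936 and 20779 CPM after injury, with 15 of the 17 detected in control 1 and all 17 in the other libraries, and their part in the inner results was not tested.

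The largest inner changes that passed were in a crosslinking enzyme, chaperone-side genes and a hydroxylase. Loxl3, a lysyl oxidase needed for palate and spine development, read 20.3 and 45.1 CPM in the control libraries and 77.7 and 151 CPM in the injured ones, and rose by 1.97 ± 0.30 on the log2 scale (paired edgeR, adjusted p = 2.8e-06). Creb3l1 read 14.5 and 21.4 CPM in controls and 42.8 and 58.3 CPM after injury and rose by 1.64 ± 0.33 (paired edgeR, adjusted p = 0.00057). Fkbp10, a prolyl isomerase that supports telopeptide lysine hydroxylation, read 55.2 and 72.6 CPM in controls and 121 and 226 CPM after injury and rose by 1.56 ± 0.28 (paired edgeR, adjusted p = 9.4e-05). For all of these genes the injured values lay above the control values.

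Kdelr3, a receptor that returns escaped chaperones to the ER, read 29.0 and 42.0 CPM in controls and 79.3 and 93.0 CPM after injury and rose by 1.42 ± 0.29 (paired edgeR, adjusted p = 0.00060). P3h1, which hydroxylates single prolines of type I collagen with Crtap and Ppib, read 11.6 and 19.1 CPM in controls and 32.6 and 46.3 CPM after injury and rose by 1.51 ± 0.35 (paired edgeR, adjusted p = 0.0028). The groups did not overlap for either gene. The other 8 that rose in the paired inner fit were Pcolce (1.34 ± 0.30), Plod1 (1.27 ± 0.29), P3h2 (1.18 ± 0.27), Loxl2 (1.18 ± 0.27), P3h4 (0.92 ± 0.27), Serpinh1 (0.91 ± 0.27), P4ha2 (0.82 ± 0.27) and Plod3 (0.82 ± 0.26), all with adjusted p of 0.043 or below.

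Without the barcodes shared with injured library 1, the paired inner fit called 14 of 32 genes: the same 13 higher and P3h3 lower (5.48% and 4.33% of 10863 genes called in those directions, 9.8% in either). At the finer clustering, which moved most of the Fmod cluster to the outer class, the paired inner fit called 9 of 32: Loxl3, Fkbp10, Kdelr3, P3h1, P3h2, Plod1, Plod3 and Loxl2 higher and P3h3 lower (3.93% and 4.05% of 10326 genes called in those directions, 7.98% in either). Different clusters made up the class in the 2 groups. The Grem1 cluster held 48.0% and 82.6% of inner cells in the control libraries, 89.1% in control 1 without the shared barcodes, and 6.98% and 7.72% in the injured ones. The injured libraries also differed from each other: the Mmp3 cluster held 37.0% and 1.25% of their inner cells, the Saa1 cluster 4.11% and 47.6%, the Npy cluster 37.8% and 15.9%, and the Fmod cluster 14.2% and 27.5%. Within the Grem1 cluster alone, 0 of 26 tested genes were called with or without the pairing, where 0% of 5427 genes were called without it and 1.09% with it (0.829% higher), and the median log2 change of the 26 was 0.31 without it and 0.34 with it. Of the 13 genes called in the whole class, 7 were higher in both injured libraries within this cluster and 6 overlapped. Those 13 were chosen by a call in the class that includes this cluster. The share of all genes higher in both injured libraries here was not computed, so the 7 cannot be set against it. Loxl3 read 16.1 and 25.6 CPM in its controls and 32.1 and 27.5 CPM after injury, and Kdelr3 read 21.4 and 35.8 against 21.4 and 41.3 CPM. Lox read 1008 and 136 CPM in the controls of this cluster and 645 and 169 CPM after injury. Pcolce2, which was not called in the whole class, read 870 and 820 CPM in controls and 1757 and 1424 CPM after injury. In this cluster Pcolce2 was thus higher in both injured libraries, while Lox and Kdelr3 were not.

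The P3h3, P3h4 and Plod1 proteins form an ER complex that hydroxylates lysines in the collagen helix, and their transcripts differed in direction in the inner libraries. P3h4 read 78.4 and 74.1 CPM in inner controls and 116 and 146 CPM after injury. Plod1 read 39.2 and 42.8 CPM in inner controls and 66.7 and 113 CPM after injury. P3h3 read 42.1 and 38.2 CPM in inner controls and 15.2 and 23.1 CPM after injury, a log2 change of −0.91 ± 0.32 (paired edgeR, adjusted p = 0.069) that became −0.98 ± 0.33 (adjusted p = 0.039) without the shared barcodes. P3h4 and Fkbp10 are head-to-head neighbours in GRCm38 (GENCODE release M21): P3h4 lies on chromosome 11 from 100408456 to 100414836 on the minus strand and Fkbp10 from 100415697 to 100424824 on the plus strand, 860 bases apart. Both rose in the paired inner fit.

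Hspa5 read 1134 and 828 CPM in inner controls and 738 and 561 CPM after injury, lower in both injured libraries, with a log2 change of −0.45 ± 0.32 that missed the threshold (paired edgeR, adjusted p = 0.45). Mia3 read 71.1 and 104 CPM in controls and 76.5 and 65.5 CPM after injury, with overlap. In the paired inner fit 4.04% of all genes were called higher and 3.71% lower. On a list of 22 ER folding genes that holds none of the 36, 2 of 21 tested genes rose in the paired inner fit (Manf by 1.16 ± 0.27 and Erp29 by 0.89 ± 0.27) and none fell, with 17 of the 21 log2 changes above 0. Of 24 tested export and accessory genes 8 rose and none fell, among them Fn1 (1.83 ± 0.59), Sparc (1.67 ± 0.49), Fkbp11 (1.26 ± 0.35) and Slc39a13 (1.13 ± 0.28). The 2 lists had median log2 changes of 0.25 and 0.58. Of 13 hypoxia genes 1 fell in the inner class, Ankrd37 (−1.20 ± 0.37), and none rose.

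Hspa5, Kdelr3 and Mia3 carry the same 7-letter element upstream of their starts. Kdelr3 passed in the paired inner fit and the others did not, and the difference between them was not tested. In the outer class, where none of the 3 passed, Kdelr3 read 40.7 and 55.5 CPM in controls and 77.0 and 121 CPM after injury, and Mia3 read 71.2 and 73.2 against 105 and 104 CPM. Hspa5 read 1196 and 573 against 867 and 461 CPM there. Kdelr3 and Mia3 were thus higher in both injured outer libraries and Hspa5 overlapped, and the sequences are shown to place the element. Sequences within 250 bases upstream of the RefSeq start (GRCm38.p6) were on hand for 25 of the 36 genes and were searched on both strands. The element TGACGTG, part of the response elements of ER stress factors, was found for 4 of the 25 (Hspa5, Kdelr3, Mia3 and Adamts3) and in 1.65% of 32851 upstream regions. The full ER stress response element, CCAAT and CCACG separated by 9 bases, was found for Hspa5 only, and in 0.113% of all regions. It overlaps none of the TGACGTG matches. A match is a description of the letters and not a measured binding site. Capitals mark TGACGTG or its reverse complement in the first 3 lines and the element's ends in the last. All read 5′ to 3′ on the gene's strand, and distances are counted from the RefSeq start. The first Hspa5 line stops at 34771969, short of that start, and the GENCODE gene begins at 34771970. The last line thus lies upstream of the RefSeq start but inside the GENCODE gene.
Kdelr3, chr15:79516158-79516407, plus strand, element 23 to 29 bases upstream: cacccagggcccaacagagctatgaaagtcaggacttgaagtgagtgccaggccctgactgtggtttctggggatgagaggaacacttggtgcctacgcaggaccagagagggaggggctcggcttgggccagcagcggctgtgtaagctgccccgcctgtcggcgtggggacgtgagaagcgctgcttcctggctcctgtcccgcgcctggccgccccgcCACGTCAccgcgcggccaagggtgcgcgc
Mia3, chr1:183369566-183369815, minus strand, element 80 to 86 bases upstream: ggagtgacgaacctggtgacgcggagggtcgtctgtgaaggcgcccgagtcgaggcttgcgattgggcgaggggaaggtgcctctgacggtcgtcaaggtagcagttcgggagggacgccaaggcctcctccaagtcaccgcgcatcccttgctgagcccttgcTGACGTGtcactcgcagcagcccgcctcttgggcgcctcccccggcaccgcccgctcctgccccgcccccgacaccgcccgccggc
Hspa5, chr2:34771840-34771969, plus strand, element 151 to 157 bases upstream: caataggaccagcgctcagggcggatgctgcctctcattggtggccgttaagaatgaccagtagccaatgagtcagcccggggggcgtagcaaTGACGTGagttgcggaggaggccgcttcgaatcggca
Hspa5 ER stress response element, chr2:34772025-34772043, plus strand, 47 to 65 bases upstream: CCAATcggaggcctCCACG

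In the outer class extracellular enzymes were among the largest changes. The unpaired fit called 3 of 32 tested genes higher and none lower, where 1.47% and 0.618% of 5017 genes were called (2.09% in either direction): P4ha3, Bmp1 and Loxl1. P4ha3 (chromosome 7, 100285520 to 100319699 in GRCm38) read 5.09 and 5.05 CPM in the control libraries, from 1 and 2 UMIs, and 71.5 and 80.8 CPM in the injured ones. The ratio of the sums was 15.8 with an exact 95% counting interval of 5.34 to 77.0, and the fitted log2 change was 3.86 ± 0.69 (unpaired edgeR, adjusted p = 0.014). Loxl1 (chromosome 9, 58287738 to 58313186) read 40.7 and 2.52 CPM in controls, from 8 and 1 UMIs, and 132 and 336 CPM after injury, a log2 change of 3.72 ± 0.82 (unpaired edgeR, adjusted p = 0.028). Bmp1 (chromosome 14, 70474558 to 70520234) read 56.0 and 40.4 CPM in controls and 165 and 341 CPM after injury, a log2 change of 2.41 ± 0.54 (unpaired edgeR, adjusted p = 0.029). For all 3 genes both injured libraries lay above both controls. P4ha3 reached the low-count filter's minimum of 26.3 CPM in the injured libraries and in no control, and Loxl1 in both injured libraries and 1 control. A gene admitted through the group where it is high has to differ, so of the 3 calls that of Bmp1, which reached it in all 4 libraries, is the one the filter did not favour.

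The paired fit called 10 of the 32 higher and 1 lower, where 5.32% and 4.9% of all genes were called (10.2% in either direction, and the same values without the shared barcodes, none of which lay in this class). Besides P4ha3 (3.88 ± 0.67), Loxl1 (3.76 ± 0.58) and Bmp1 (2.39 ± 0.44), the genes that rose were Loxl2 (1.81 ± 0.40), P3h1 (1.68 ± 0.54), Plod3 (1.60 ± 0.46), Lox (1.38 ± 0.37), Fkbp10 (1.26 ± 0.39), Serpinh1 (1.23 ± 0.38) and Pcolce (1.11 ± 0.38). P3h1, like P4ha3, reached the filter's minimum in no outer control. Lox read 351 and 308 CPM in outer controls and 847 and 922 CPM after injury, without overlap. Pcolce2 fell, from 1079 and 1047 CPM to 757 and 351 CPM, a log2 change of −1.11 ± 0.36 (paired edgeR, adjusted p = 0.034), while its paralogue Pcolce read 285 and 220 CPM in controls and 435 and 701 CPM after injury. By library, 19 of the 32 were higher in both injured libraries and 3 (Plod2, Fkbp7 and Pcolce2) lower, where 24.9% and 17.1% of genes were.

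The outer class also changed in makeup. The Myoc cluster held 85.3% and 92.3% of outer cells in the control libraries and 50.0% and 18.6% in the injured ones, and the Aspn cluster held 14.7% and 5.77% against 37.5% and 63.7%. In the Myoc cluster alone, 0 of 28 tested genes were called (0.0282% of 3544 genes called) with 1 at an unadjusted p under 0.05, and the pairing added none. There Bmp1 read 58.6 and 37.9 CPM in controls and 34.1 and 41.2 CPM after injury, Serpinh1 287 and 203 against 119 and 213 CPM, and Pcolce2 1102 and 1049 against 1354 and 1777 CPM. The Bmp1 and Serpinh1 values overlapped, and Pcolce2 was higher in both injured libraries in that cluster, opposite to the whole class. Lox read 393 and 323 CPM in Myoc-cluster controls and 707 and 840 CPM after injury, a log2 change of 1.26 ± 0.44 (unadjusted p = 0.014, adjusted p = 1.0).

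The 3 unpaired outer calls, from edgeR, were not kept under every alternative. Leaving out a library leaves its group with 1, which is then assumed to vary like the other group. Without control library 2 none passed (adjusted p of 0.11 for P4ha3, 0.23 for Loxl1 and 0.34 for Bmp1), and without injured library 1, which held 32 outer cells, 12 of 33 genes passed, where 0.619% and 7.68% of all genes were called. Finer clustering also ended all 3 calls (0.055, 0.11 and 0.19) and made 1 other, that of Lox, where 1.28% of all genes were called. With the pairing and finer clustering together, 12 of 32 genes were called higher and none lower, where 4.06% and 3.85% of all genes were called (7.91% in either direction), and Pcolce and Pcolce2 lost their calls. In the unpaired fit DESeq2 ended the call of Loxl1 (0.44), leaving out likely doublets those of Bmp1 (0.068) and Loxl1 (0.081), and leaving out injured library 2 that of Bmp1 (0.097).

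**Figure D3:**
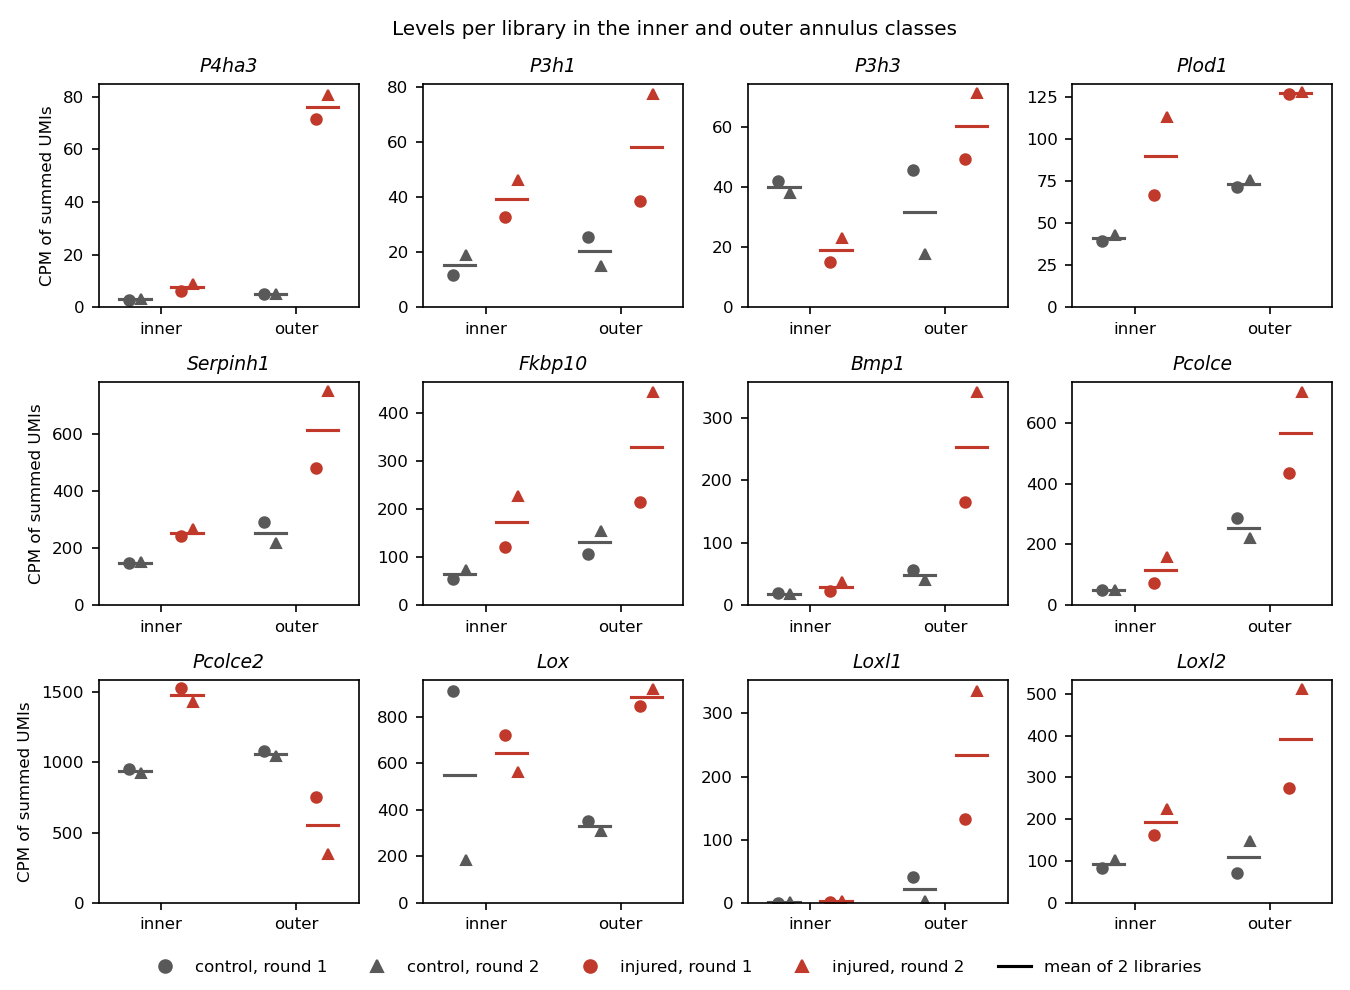
CPM of the summed UMIs of 12 genes in each library (points: circles round 1, triangles round 2; bars: mean of 2 libraries), control in grey and injured in red, for the inner and outer classes, each vertical axis starting at 0. Loxl1 stays under 5 CPM in all inner sums and reaches 132 and 336 CPM in injured outer cells, and Pcolce2 is higher after injury in inner cells and lower in outer cells.

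Whether the injury change itself differed between the classes was tested with an interaction term. None of 33 tested genes was called, where 0.452% of 9294 genes were (0.151% higher and 0.301% lower in the outer class), with 8 of the 33 and 8.20% of all genes at an unadjusted p under 0.05. DESeq2 also called none. Pcolce2 came closest, with an outer change lower than the inner one by 1.88 ± 0.41 on the log2 scale (adjusted p = 0.061), followed by Creb3l1 (−1.91 ± 0.47, adjusted p = 0.11). Pcolce2 passed in edgeR under 5 alternatives, among them leaving out injured library 1, which brought 4 of 34 genes past the threshold (3.51% of all genes called), and no low-count filter (adjusted p = 0.00013), while with finer clustering the difference was −0.84 (adjusted p = 0.76).

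**Figure D4:**
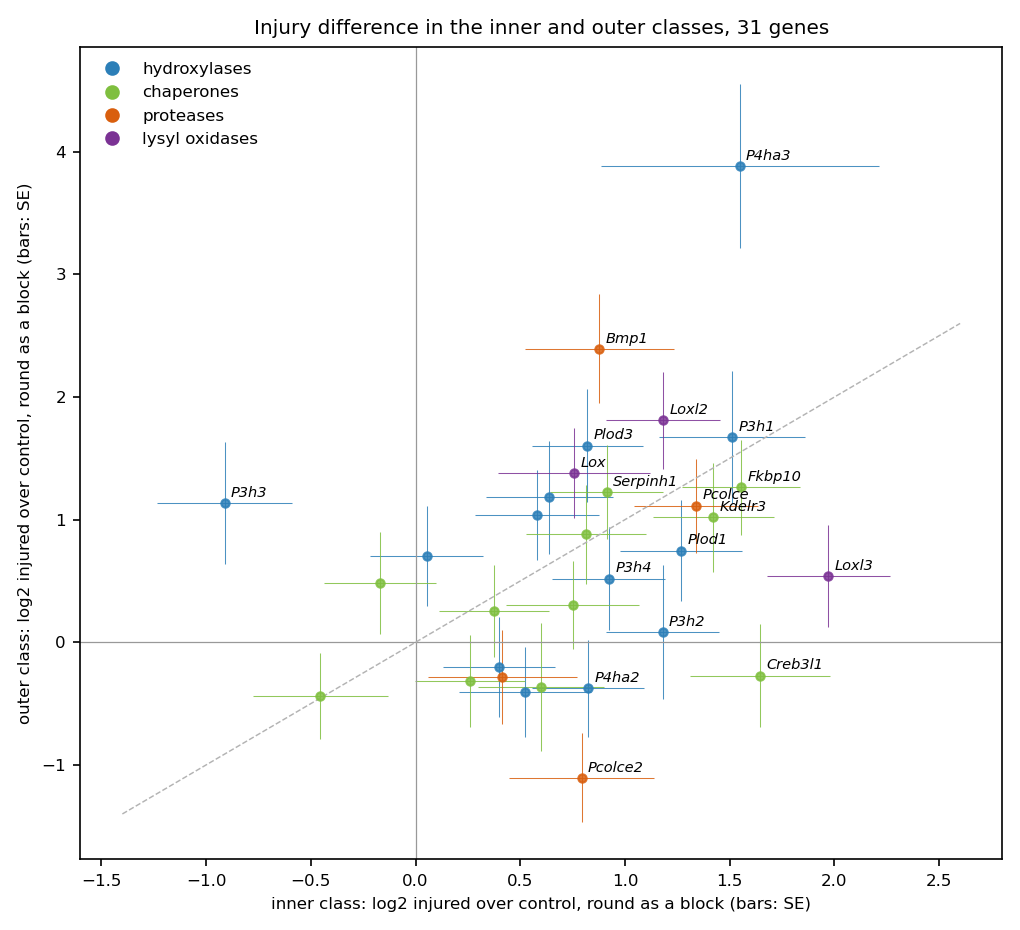
Log2 change after injury in the inner class (horizontal) and outer class (vertical) from the paired fits, with SE bars, for the 31 genes tested in both, coloured by role, with a dashed line of equal change. P4ha3 and Bmp1 lie above the line, Pcolce2, Creb3l1 and Loxl3 below it, and P3h3 lies at −0.91 in the inner class and 1.13 in the outer class.

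Over all matrix cells together the unpaired fit called 0 of 34 tested genes (0.0267% of 11220 genes called, 3 genes in all), with 13 of the 34 and 7.60% of all genes at an unadjusted p under 0.05, and DESeq2 called none of them. The paired fit called 10 higher and none lower, where 2.33% of genes were called in each direction (4.65% in either): Loxl1 (3.71 ± 0.91), P4ha3 (2.34 ± 0.46), P3h1 (1.56 ± 0.31), Loxl3 (1.55 ± 0.27), Fkbp10 (1.48 ± 0.30), Loxl2 (1.39 ± 0.28), Kdelr3 (1.38 ± 0.26), P3h2 (1.18 ± 0.27), Plod1 (1.07 ± 0.28) and Plod3 (0.98 ± 0.26). In the same sums the 9 nucleus pulposus-like markers went from 1626 and 1181 CPM in controls to 705 and 417 CPM after injury (6 or 7 detected, Noto at 0 in all 4), the 17 outer markers from 12250 and 13032 to 20248 and 29525 CPM (16 or 17 detected), and the 5 markers of dividing cells from 13.7 and 10.5 to 37.9 and 114 CPM (4 or 5 detected). Their part in the result was not tested. Without the shared barcodes 3 of these passed, Loxl3, Loxl2 and Kdelr3 (0.795% of genes called higher, 1.08% lower and 1.87% in either direction). The median log2 change of the 34 in the paired fit was 0.87 with those barcodes and 0.88 without them. Both injured libraries exceeded both controls for 23 of the 34, where 16.7% of genes did so, and lay below them for none, where 20.3% did so. Without the shared barcodes these counts were 22 and 0, where 17% and 20.8% of genes did so.

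Lox differed widely between the control libraries. It read 736 and 202 CPM in the matrix cells of control 1 and control 2 and 729 and 680 CPM after injury, so that control 1 lay just above both injured libraries. In the inner class alone control 1 stood at 913 CPM, and at 949 CPM without the shared barcodes, against 185 CPM in control 2. The 5 osteoblast-like markers summed to 1090 and 49.7 CPM in the inner class of control 1 and control 2 and to 25.3 and 9.16 CPM in the injured libraries, with 4, 2, 4 and 3 of the 5 detected, and their part in the level of Lox was not tested. In the outer class, by contrast, the controls were close at 351 and 308 CPM.

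The fibrillar collagens, the substrate of these enzymes, were higher after injury by a larger factor than the sum of the processing genes. The 9 fibrillar collagen genes summed to 5084 and 6416 CPM in control matrix cells and to 16122 and 25988 CPM after injury, and 8 of the 9 rose in the paired fit, where 2.33% of all genes were called higher, Col5a3 by 4.14 ± 0.76, Col2a1 by 2.18 ± 0.38, Col1a1 by 2.14 ± 0.41 and Col3a1 by 2.02 ± 0.44. The unpaired fit called none of the 9, and the paired fit without the shared barcodes called 3 (Col5a2, Col1a1 and Col2a1), where 0.795% of genes were called higher. The 36 processing genes summed to 5834 and 5411 CPM in controls and 7539 and 8604 CPM after injury. Per 100 fibrillar collagen UMIs there were 115 and 84.3 UMIs of processing genes in control matrix cells and 46.8 and 33.1 after injury. In the inner class this ratio was 164 and 127 against 49.8 and 43.2, and in the outer class 56.2 and 39.9 against 24.0 and 23.4. The injured values lay below the control values in these 3 sums. They also lay below the controls in the Grem1 cluster (247 and 241 against 186 and 129), the Aspn cluster (56.0 and 25.6 against 24.4 and 21.5) and the Myoc cluster (56.3 and 41.8 against 20.6 and 33.4), but between them in the Fmod cluster (20.9 and 44.6 against 29.1 and 28.6). The control ratios rest on 17 and 16 cells in the Fmod cluster, of which 2 in control 1 have no shared barcode, and on 5 and 3 cells in the Aspn cluster. Without the shared barcodes the control 1 ratio was 128 in matrix cells, 225 in the inner class and 17.6 in the Fmod cluster. With 2 libraries a group no test of this ratio was run. In the unpaired outer fit, where 1.47% of all genes were called higher and 0.618% lower, 5 of the 9 collagens rose, Col5a3 by 6.84 ± 1.05, Col5a1 by 2.56 ± 0.54, Col3a1 by 2.44 ± 0.49 and Col5a2 by 2.03 ± 0.46, with Col1a1 the fifth. In the Myoc cluster alone none of 8 tested collagens was called, with or without the pairing, where 0.0282% of 3544 genes were called in each fit. With so few calls of any gene, the lost calls do not show that the collagen changes were absent there. Of 23 export genes tested in the whole outer class, Fkbp11 rose by 2.80 ± 0.58 and Colgalt2 fell by 2.66, and of 19 ER folding genes none passed.

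By role, the sums over matrix cells went from 1371 and 1732 CPM to 2181 and 2480 CPM for the hydroxylase group, from 2513 and 2255 to 2736 and 3243 CPM for the chaperones, from 1094 and 1058 to 1629 and 1629 CPM for the proteases, and from 856 and 366 to 993 and 1251 CPM for the lysyl oxidases. Both injured sums exceeded both control sums in each role. In the inner class the lysyl oxidase sum did not separate, at 1024 and 337 CPM in controls and 970 and 952 CPM after injury, and control 1 was at 1036 CPM without the shared barcodes. In the outer class the chaperone sum did not separate, at 3180 and 2326 CPM in controls and 3170 and 3847 CPM after injury, nor did the protease sum, at 1552 and 1476 CPM in controls and 1450 and 1576 CPM after injury, where higher Bmp1 and Pcolce met lower Pcolce2.

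A few members stayed near the detection limit. Tll1, a relative of Bmp1, had at most 3 UMIs in any library's matrix cells. Adamts14, a relative of Adamts2, had 2 and 2 UMIs in control matrix cells and 1 and 93 in injured ones, and of those 93 UMIs in injured library 2, 93.5% lay in the Aspn and dividing clusters. Adamts3, which also removes amino-terminal propeptides, read at most 3.32 CPM in matrix cells. Loxl4 read 4.22 and 4.42 CPM in control matrix cells and 7.21 and 8.43 CPM after injury and passed no test. In the injury fits over whole classes and all 4 libraries the genes that failed the low-count filter were Tll1 and Adamts14 in all of them, Adamts3 in the inner and outer classes, Loxl1 in the inner class and Loxl4 in the outer class. The fits of single clusters tested fewer, as given beside them.

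Of the members not yet described, P4hb, Kdelr2 and Fkbp14 were higher in both injured libraries in the inner class, and Crtap, Colgalt1 and P4hb in the outer class, with none past the threshold in either fit. P4hb, the subunit that holds prolyl 4-hydroxylase soluble, read 244 and 386 CPM in outer controls and 526 and 811 CPM after injury, a log2 change of 1.04 ± 0.37 (paired edgeR, adjusted p = 0.057). Plod2 read 425 and 742 CPM in inner controls and 586 and 920 CPM after injury, with overlap. In the outer class Plod2 was lower in both injured libraries, at 351 and 389 CPM in controls and 270 and 307 CPM after injury, a log2 change of −0.41 that missed the threshold (paired edgeR, adjusted p = 0.58). Fkbp7, Rcn3 and Adamts2 differed by at most 0.41 on the log2 scale in both classes in the paired fits, and none passed. The nucleus pulposus-like cells of the controls, of which the injured libraries held 5 and 1, carried 2171 and 634 CPM of the 36 genes, below every inner and outer sum, and the median mitochondrial share of that cluster was 46.0%.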

How the data were processed

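Single-cell RNA libraries from 2 control and 2 injured pools of mouse discs were deposited as raw UMI counts per gene and barcode by the authors, made with Cell Ranger against mm10 per the submitters' processing notes (version 6.0.0 for control library 1 and 4 for the others, per the file headers). Total counts were 1114210 and 9891258 in the controls and 8943537 and 16972879 in the injured libraries. Barcodes with at least 250 genes were kept, in control library 1 out of a list of 444 barcodes with the lowest at 502 UMIs. Cells were clustered with scanpy 1.11.5 (1997 variable genes, 30 principal components, 20 neighbours, Leiden resolution 1, 18 clusters of which 12 were named), and doublets were removed only in an alternative (1, 6, 5 and 27 cells in control 1, control 2, injured 1 and injured 2). Counts were summed per class and library and tested with edgeR 4.0.16 (quasi-likelihood, TMM, filterByExpr, adjusted p under 0.05), with DESeq2 1.42.0 as an alternative. Changes are log2 fold ± SE, and with pooled libraries the p-values measure only the spread between these libraries.

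The unpaired fit has injury as its only term. The labels state that control and injured discs came from the same animals, so the libraries of a round form pairs, and the paired fit is printed beside the unpaired one. Deviations of the round 1 libraries from their group means correlated with r = 0.463 over 11220 genes. That value includes the shared barcodes, which 94 of the 267 matrix cells of control library 1 have. It cannot tell pairing by animal from any other likeness of the round 1 libraries. The 36 genes, the 4 pathway lists and the rule for naming genes (every gene of the 36 that passed, and the largest changes on a list) were chosen with earlier results of these data known. Contrasts with endothelial and mural classes were not run, since an injured library held fewer than 20 of their cells. The alternatives were other scalings, filters, cell thresholds, clustering, doublets, shared barcodes and single libraries left out. The pairing combined with another cell set or clustering, and the Grem1 and Myoc clusters alone, were chosen after seeing the data. The test code was run on simulated counts with known changes, 1 constant spread and no round effect, shared barcodes or change in cluster makeup. Such a run checks the code and not the error rates in these data. Intervals cover counting error only. Coordinates are from GENCODE release M21 (GRCm38), and upstream sequences from RefSeq (GRCm38.p6).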

Additional observations from a re-analysis of the deposited data

Results flagged for a closer look

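The injury changes of P3h3 and Pcolce2 went opposite ways in the inner and outer classes, with both injured libraries on one side of both controls in one class and on the other side in the other. For P3h3 the outer change exceeded the inner one by 1.98 ± 0.55 on the log2 scale (edgeR interaction, adjusted p = 0.19), from inner levels of 42.1 and 38.2 CPM in controls and 15.2 and 23.1 CPM after injury and outer levels of 45.8 and 17.7 CPM and 49.5 and 71.4 CPM. For Pcolce2 the outer minus inner difference was −1.88 ± 0.41 (edgeR interaction, adjusted p = 0.061), and in the Myoc cluster alone its outer change was 0.69. Neither difference passed the threshold.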

How the results depend on the processing

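All 29 genes higher in matrix cells than in macrophages kept direction and call in the alternatives run. The counts of all genes called depended on the model. For matrix cells 3 genes became 522 with the replicate block (round), 210 with that block and without shared barcodes, 302 without a low-count filter, 121 with DESeq2, 0 with at least 500 genes per cell or under 10% mitochondrial UMIs, and 0 to 121 with a library left out. For the inner class 0 became 844 with the block, 1065 with the block and without shared barcodes, 824 with the block and finer clustering, 15 with RLE size factors or without shared barcodes, 97 with DESeq2, 14 and 17 with the cell thresholds, 59 in the Grem1 cluster with the block, and 83 to 215 with a library left out. For the outer class 105 became 513 with the block (also without shared barcodes), 567 with the block and finer clustering, 273 without a filter, 38 without doublets, 1 in the Myoc cluster with or without the block, and 36 to 490 with a library left out. Inner against outer went from 1035 to 1617 without a filter and to between 431 and 1041 with a library left out. The interaction went from 42 to 157 without a filter, 71 with RLE, 26 and 21 with the cell thresholds, 74 without doublets, 21 with finer clustering, and 9 to 358 with a library left out. The block changed the members' calls as given beside each result.

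Lox turned negative in matrix cells without control library 2 (range −0.011 to 1.92 with a library left out), and in the inner class with finer clustering (−0.049), in the Grem1 cluster (−0.48, with the block −0.18) and without control library 2 (−0.40 to 1.98). In the outer class Creb3l1 was 0.35 with finer clustering (−0.58 to 0.057 with a library left out) and Hspa5 ranged from −0.951 to 0.22. In the Myoc cluster alone Serpinh1 was −0.34, Bmp1 −0.089 and Pcolce2 0.69, and with the block −0.33, −0.030 and 0.67. The causes were not tested. The 32 to 52 outer cells in 3 of the 4 libraries limit the precision there.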
